A study of Mus musculus with 15 samples.

Results

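The small leucine-rich proteoglycans (SLRPs) *Dcn*, *Bgn*, *Aspn*, *Lum*, *Fmod*, *Prelp*, *Omd*, *Ogn* and *Podn* were followed through RNA sequencing of mouse retinal pigment epithelium (RPE), the pigmented cell layer behind the photoreceptors. The members were chosen by name as 9 extracellular matrix genes of this family. Of these, 8 were among the 20910 genes of the count table for cultured RPE (mRPE) cells and 9 were among the 25038 genes of the table for RPE/choroid tissue. *Lum* was not analysed here in mRPE cells.

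The mRPE line came from pooled RPE cells of C57/BL6J mice that were 8 to 12 weeks old, was immortalized with HPV E6/E7 and then received a lentiviral Cas9. The 4 wild-type (WT) libraries are labelled mRPE WT, and the study's methods describe Cas9 cells given a scrambled guide RNA as its control. KO22 (3 libraries) and KO26 (2 libraries) are mRPE lines labelled Prom1KO 22 and Prom1KO 26, made with a guide RNA against *Prom1* exon 5, and each stands for 1 edited line. The study's methods place the deletions of its independent knockout lines at different sites of the gene, so these lines do not carry the same edit. The RPE/choroid samples comprised 3 WT samples and 3 samples labelled *Prom1*-KO, for which Prom1fl/fl mice were crossed with RPE65-Cre mice and gavaged with tamoxifen. The study's methods give an age of 6 to 8 weeks under its C57/BL6J mice. They do not describe the Prom1fl/fl animals, so this may not be the age of the tissue samples. The number of animals behind each tissue sample was not given in the sources used here, and nothing in them says that replicates came from separate cultures or animals, so the tests measure only the spread between these samples.

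SLRPs are secreted proteins with a core of leucine-rich repeats, and many carry glycosaminoglycan chains of the chondroitin, dermatan or keratan sulfate type. They bind fibrillar collagens and set the diameter and spacing of collagen fibrils, and several also bind growth factors such as TGF-β. In the back of the eye they are components of the sclera, the choroid and Bruch's membrane, the sheet of matrix on which the RPE rests.

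The mRPE libraries held 8076188 to 27537863 counts and the tissue libraries 48154444 to 61766179. *Prom1* was not analysed here in mRPE cells. Levels are given as CPM, which are counts scaled to the library's total after that total is multiplied by edgeR's TMM normalization factor. In RPE/choroid *Prom1* stood at 50.5 CPM in WT and 44.5 CPM in the samples labelled *Prom1*-KO (log2 fold change -0.18, adjusted p = 0.824, edgeR's quasi-likelihood test). The TMM-scaled transcript level thus did not show the labelled genotype in this bulk tissue. That reading depends on the TMM factors, 0.488 in labelled *Prom1*-KO replicate 3 and 1.07 to 1.33 in the other tissue libraries. Replicate 3 held 1071 *Prom1* reads among 61766179 counts, and WT replicate 2 held 2930 among 52590233. Scaled to the total alone, every labelled *Prom1*-KO library lay below every WT library, a difference that was not tested. The samples are called labelled *Prom1*-KO throughout. Of 10 RPE markers, 3 (*Best1*, *Mitf* and *Pmel*) had rows in the mRPE table. These 3 summed to 8.19 to 12.8 CPM in WT, 15.5 to 38.7 CPM in KO22 and 5.38 to 9.14 CPM in KO26. All 10 markers summed to 2009 to 2904 CPM in WT RPE/choroid, which was normalized separately. The fibroblast markers in mRPE cells summed to 12275 to 17426 CPM in WT, 4733 to 7293 CPM in KO22 and 19806 to 21365 CPM in KO26. The study left both KO26 libraries out of its own tests as outliers. They are used here in comparisons of their own, and KO22 was compared with WT without them.

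Several members share a chromosomal neighbourhood. On GRCm39, *Aspn*, *Omd* and *Ogn* lie in a row on the plus strand of chromosome 13, from 49697609 to 49780412, inside the span of *Cenpp* on the minus strand. *Prelp* (minus strand) and *Fmod* (plus strand) lie on chromosome 1 between 133837335 and 133976015. *Dcn* and *Lum* lie on chromosome 10, *Podn* on the minus strand of chromosome 4 from 107871988 to 107889534, and *Bgn* on chromosome X.

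The 150 bases before the canonical transcript start are printed for the chromosome 13 genes with the largest changes, for *Fmod*, and for *Bgn* and *Dcn*, the members not called in KO22. They were read from GRCm39, 5′ to 3′ on the strand of the gene, and all 5 genes are on the plus strand. Capitals mark matches on either strand to 5 motifs, which were spelled as TATAAA for the TATA box, as TGANTCA for AP-1, as GGAATG for TEAD factors, as CAGAC for SMAD factors and as TAATCC for OTX or CRX.
Ogn (chr13:49761199-49761348): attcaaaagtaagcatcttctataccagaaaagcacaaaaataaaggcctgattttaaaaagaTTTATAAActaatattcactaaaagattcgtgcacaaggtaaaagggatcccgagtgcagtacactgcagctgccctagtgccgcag
Omd (chr13:49735788-49735937): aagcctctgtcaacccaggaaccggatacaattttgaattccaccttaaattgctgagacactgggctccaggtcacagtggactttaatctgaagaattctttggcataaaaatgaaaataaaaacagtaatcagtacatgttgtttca
Fmod (chr1:133964842-133964991): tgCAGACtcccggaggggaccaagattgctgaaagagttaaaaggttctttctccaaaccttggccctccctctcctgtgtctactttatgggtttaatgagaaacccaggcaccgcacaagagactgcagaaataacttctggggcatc
Bgn (chrX:72527058-72527207): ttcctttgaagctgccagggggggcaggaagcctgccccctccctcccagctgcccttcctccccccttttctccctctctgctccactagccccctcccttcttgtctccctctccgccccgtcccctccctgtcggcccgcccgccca
Dcn (chr10:97315125-97315274): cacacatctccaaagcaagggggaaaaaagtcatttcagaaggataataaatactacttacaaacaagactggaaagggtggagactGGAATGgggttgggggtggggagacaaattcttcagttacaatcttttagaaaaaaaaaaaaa

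The *Ogn* window held the TATA box letters on both strands, in 2 matches that overlap each other, and 7.29% of the 21757 protein-coding promoters of the same length hold these letters. The *Fmod* window held CAGAC (26.8% of all promoters), and the *Dcn* window held GGAATG (6.90% of all promoters). The AP-1 letters (3.61% of all promoters) and the OTX/CRX letters (3.95%) were in none of the 5 windows. In *Omd* and *Bgn* none of the letters was found, which says only that they are not in these windows. The GC content was 38.0% in the windows of *Ogn*, *Omd* and *Dcn*, 49.3% in that of *Fmod* and 69.3% in that of *Bgn*, against a median of 55.3% over all promoters.

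Which SLRPs do mRPE cells make? Counts were scaled to CPM with edgeR's TMM factors, and levels of different genes are compared as CPM per kb of the canonical transcript. In WT mRPE the mean level of *Bgn* (biglycan, a chondroitin or dermatan sulfate proteoglycan) was 1164 ± 76.3 CPM per kb (SD, n = 4). *Dcn* (decorin, its closest relative) stood at 136 ± 46.3 CPM per kb, *Ogn* (osteoglycin, also called mimecan) at 130 ± 26.9 and *Prelp* (a heparin-binding SLRP of basement membranes) at 103 ± 43.6. The ranges of neighbours in this order overlapped from *Dcn* to *Prelp*. *Fmod* (fibromodulin, a keratan sulfate proteoglycan that binds collagen) at 19.0 ± 8.24 and *Omd* (osteomodulin) at 15.1 ± 3.95 CPM per kb also overlapped, as did *Podn* (podocan) at 4.77 ± 1.55 and *Aspn* (asporin, which carries an aspartate stretch in place of chains) at 3.92 ± 0.901. With merged exon length in place of the canonical transcript, *Ogn* moved ahead of *Dcn* and the other ranks stayed.

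In KO22, 6 of the 8 members fell against WT and none rose, while 13.8% of all 20455 genes tested were called lower and 11.4% higher. Calls needed an adjusted p under 0.05 (Benjamini-Hochberg over all genes) together with a log2 fold change beyond 1.2 in size. The median log2 fold change of the 8 members was -3.20 and that of all genes tested -0.03. In 7 of 8 members every KO22 library lay below every WT library, a pattern that 25.3% of all genes tested showed.

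Among the class I SLRPs, *Dcn* and *Bgn* were not called and *Aspn* was called lower. *Bgn* gave 2863, 2591, 3036 and 2785 CPM in WT replicates 1 to 4 and 2061, 1967 and 1940 CPM in KO22. The groups did not overlap, yet the log2 fold change was -0.51 ± 0.12 (SE; adjusted p = 0.00690, edgeR's quasi-likelihood test), inside the fold limit. *Dcn* gave 414, 946, 1047 and 906 CPM in WT and 1496, 1134 and 946 CPM in KO22, with overlapping groups. Its log2 fold change was 0.61 ± 0.30 (adjusted p = 0.113, edgeR).
The *Dcn* value rested on batch 1, which holds WT replicate 1 and KO22 replicate 1 of these groups. Within batch 1 the log2 ratio was 1.85, and within batch 2 it was 0.10. Without WT replicate 1 the log2 fold change was 0.09, and without KO22 replicate 1 it was 0.12.
*Aspn* gave 7.15, 8.09, 12.0 and 9.98 CPM in WT and 2.25, 4.78 and 4.50 CPM in KO22. Every KO22 library was lower, and the log2 fold change of -1.25 ± 0.21 (adjusted p = 0.000965, edgeR) sat just past the fold limit. It was inside that limit without KO22 replicate 1 (-1.08), without WT replicate 1 (-1.10) and without WT replicate 3 (-1.17). Exons of *Aspn* overlap exons of *Cenpp* on the other strand, and *Cenpp* stood at 8.13 CPM in WT and 13.3 CPM in KO22. The strand setting of the counting was not stated, so reads of the overlap cannot be assigned to 1 gene.

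**Figure D1:**
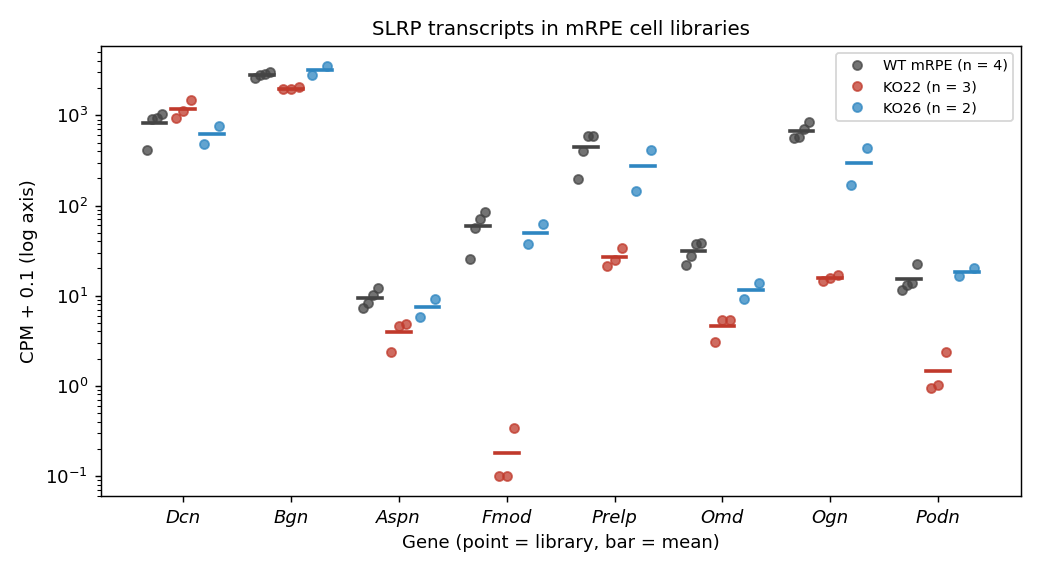
CPM + 0.1 on a log axis for the 8 SLRPs measured in mRPE cells, with a point for each library and a bar for the group mean (WT n = 4, KO22 n = 3, KO26 n = 2). The KO22 points of every gene but *Dcn* lie below all points of WT and KO26, narrowly so for *Bgn* and *Aspn*, and those of *Dcn* overlap WT.

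The class II members fell more. *Fmod* had 632, 816, 715 and 1191 reads in WT replicates 1 to 4 and 0, 5 and 0 reads in KO22. This is 59.2 ± 25.7 CPM (SD, n = 4) against 0.0804 ± 0.139 CPM (SD, n = 3). All but 1 of the KO22 libraries had no read at all. Pooled over libraries and scaled by depth, WT held 475 times as many *Fmod* reads as KO22 (exact 95% interval 203 to 1463, for counting error only). The fitted log2 fold change was -8.98 ± 0.41 (adjusted p = 6.62e-07, edgeR), and it depends on these few reads.
*Prelp* gave 198, 400, 589 and 595 CPM in WT and 33.7, 24.8 and 21.3 CPM in KO22. The lowest WT library, replicate 1 of batch 1, was still above every KO22 library. The log2 fold change was -3.94 ± 0.39 (adjusted p = 3.97e-05, edgeR), with -2.53 within batch 1 and -4.47 within batch 2. Its antisense neighbour *Gm15851*, whose exons overlap those of *Prelp*, held 18.9% to 25.9% of the *Prelp* count in all 9 mRPE libraries and fell alike, at -3.94 (adjusted p = 5.83e-05, edgeR). Without a stated strand setting the reads of this pair cannot be told apart.
*Omd* gave 21.5, 27.4, 37.4 and 38.6 CPM in WT and 2.94, 5.31 and 5.20 CPM in KO22. The groups were well apart, with a log2 fold change of -2.75 ± 0.17 (adjusted p = 3.15e-06, edgeR).

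*Ogn*, the class III member, had the smallest adjusted p of the 8. It gave 555, 571, 854 and 704 CPM in WT and 15.6, 16.7 and 14.4 CPM in KO22. The KO22 libraries lay close together, far below the lowest WT library, in a gene whose WT range overlapped that of *Dcn* per kb. The log2 fold change was -5.40 ± 0.20 (adjusted p = 3.23e-07, edgeR), a 42.3-fold difference. Exons of *Ogn* too overlap exons of *Cenpp* on the other strand, whose level of 8.13 CPM in WT and 13.3 CPM in KO22 is small beside that of *Ogn* in WT and near it in KO22. *Podn*, the class V member, gave 22.3, 13.0, 13.7 and 11.3 CPM in WT and 2.25, 0.917 and 0.853 CPM in KO22. It fell by 3.64 ± 0.21 on the log2 scale (adjusted p = 1.80e-06, edgeR).

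The make-up of the family in each library changed accordingly. Of the summed CPM per kb of the 8 members, *Ogn* held 7.50% to 9.29% in WT and 0.272% to 0.319% in KO22. *Prelp* held 3.19% to 8.46% in WT and 0.510% to 0.702% in KO22. *Bgn* and *Dcn* together made up 79.9% to 87.3% in WT and 98.6% to 98.8% in KO22, where they were the only members above 8 CPM per kb in any library. The summed level itself was 1432 to 1777 CPM per kb in WT and 969 to 1110 in KO22.

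**Figure D2:**
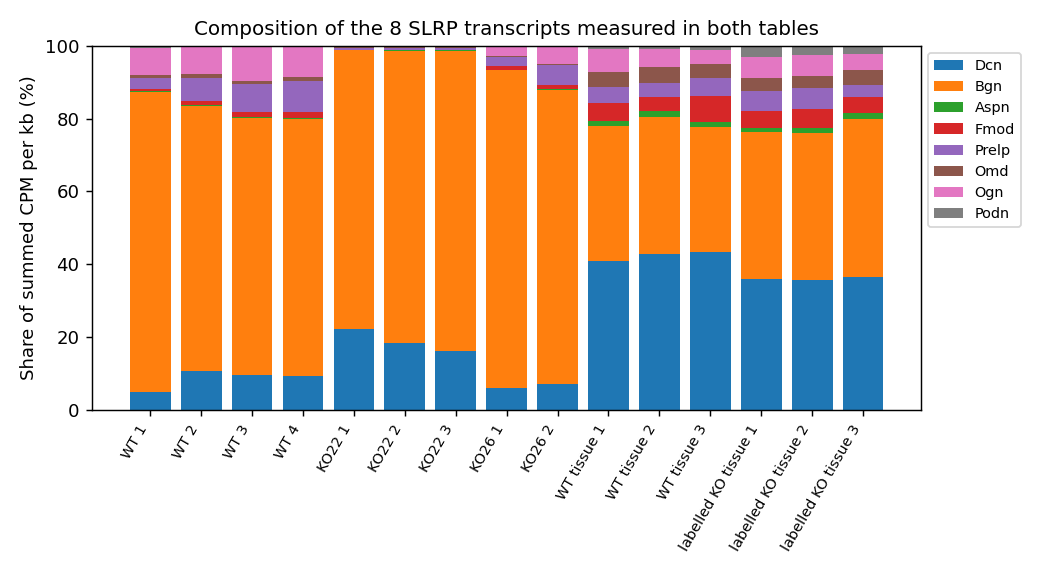
Share of the summed CPM per kb (%) taken by each of the 8 SLRPs measured in both tables, stacked for each library. In the KO22 libraries *Bgn* and *Dcn* fill 98.6% to 98.8% of the bar, while the *Ogn* and *Prelp* segments seen in WT and KO26 are too thin to see.

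Did the other clone show the same? In KO26, 1 of the 8 members, *Omd*, was called lower, and 0.719% of 20737 genes tested were called lower. *Omd* gave 9.10 and 13.5 CPM, both below the lowest WT library (log2 fold change -1.29 ± 0.20, adjusted p = 0.0107, edgeR). The adjusted p rose to 0.0598 without the batch term and to 0.0569 without KO26 replicate 1, so the call rests on those choices. *Ogn* gave 169 and 430 CPM, also below all WT libraries, and its log2 fold change of -1.12 ± 0.27 (adjusted p = 0.0478, edgeR) passed the p limit but not the fold limit. The KO26 libraries were far apart for *Ogn*, and the fold change was -0.68 without KO26 replicate 1 and -1.84 without KO26 replicate 2. The adjusted p of *Ogn* was over the limit under 8 of 12 alternatives, among them the fit without the batch term (0.124) and that without KO26 replicate 1 (0.284), so its passing the p limit rests on those choices. At the p limit alone 2 of the 8 members were lower in the reported fit, against 1.13% of all genes. The remaining 6 members overlapped with WT and had log2 fold changes of -0.57 (*Prelp*) to 0.19 (*Podn*), with adjusted p from 0.461 to 0.808 (edgeR). *Fmod*, with 37.5 and 62.3 CPM in KO26, lay within the WT range.

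The difference between the clones was tested in the same fit over 9 libraries. KO22 was called lower than KO26 in 5 of the 8 members (10.7% of all genes), namely *Fmod* (log2 difference -9.09), *Ogn* (-4.24), *Podn* (-3.78), *Prelp* (-3.27) and *Omd* (-1.46), with adjusted p from 1.17e-06 to 0.000453 (edgeR). The other 3 members passed the p limit alone, which 34.4% of all genes did in 1 direction or the other, with *Aspn* at -1.06, *Bgn* at -0.68 and *Dcn* at 0.97. The *Dcn* p of 0.0488 was over the limit under 8 of 11 alternatives, and without KO22 replicate 1 its difference was 0.30 (adjusted p = 0.189, edgeR). *Bgn* and *Aspn* were each over the limit under 2 of 11 alternatives. KO22 and KO26 were compared with the same WT libraries, so their WT comparisons are not independent of each other.

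**Figure D3:**
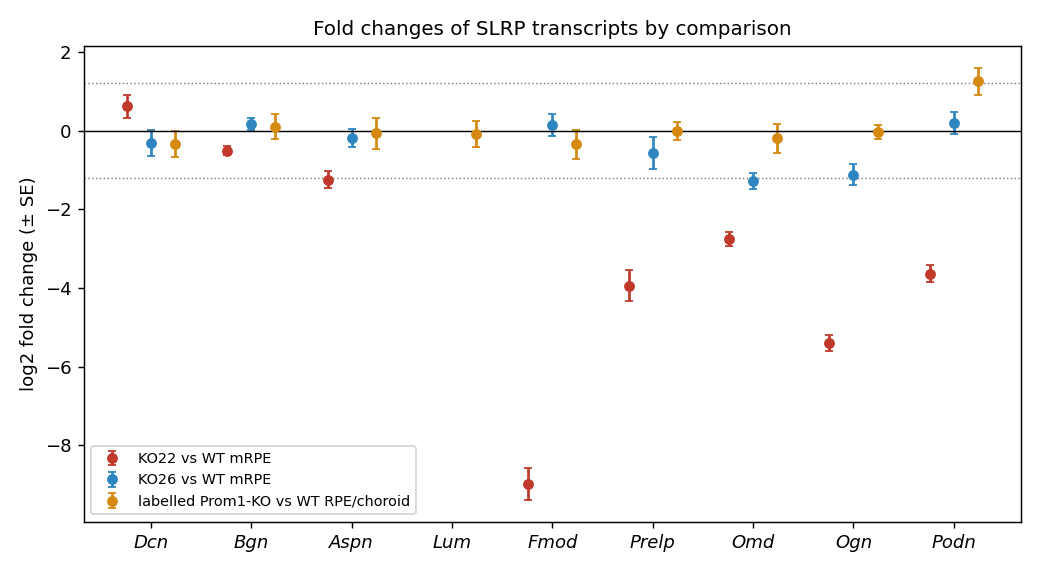
Log2 fold change with its SE for each SLRP in KO22 and KO26 against WT mRPE and in labelled *Prom1*-KO against WT RPE/choroid, with dotted lines at the fold limit of 1.2. Only KO22 holds values below -2, from -2.75 for *Omd* to -8.98 for *Fmod*, and the tissue points other than *Podn* lie near 0.

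The genes around the members did not all move with them. Within 500 kb of *Aspn*, *Omd* and *Ogn*, 11 other genes were tested in KO22, of which none was called lower and *Iars1* (an isoleucyl-tRNA synthetase gene) was called higher (log2 fold change 1.40). *Ecm2*, a leucine-rich matrix gene next to *Aspn* on the same strand, had a log2 fold change of 0.26 (adjusted p = 0.168, edgeR). The 3 SLRPs of this row thus sat among genes with a median log2 fold change of 0.79. Around *Prelp* and *Fmod*, 4 of 16 neighbours were called lower and none higher. These were *Optc* (opticin, a class III SLRP, -2.18), *Gm15851* (-3.94), the noncoding *Bmncr* (-4.16), which lies between both members, and *Btg2* (-1.53). Around *Podn*, 4 of 14 neighbours were called higher (*Glis1*, *Lrp8*, *Lrp8os2* and *Magoh*, from 1.27 to 3.21) and none lower. Around *Bgn*, 4 of 22 were called higher and 3 lower. Against 11.4% of all genes called higher and 13.8% lower in KO22, counts this small are no result about the neighbours, and no test was run on them.

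**Figure D4:**
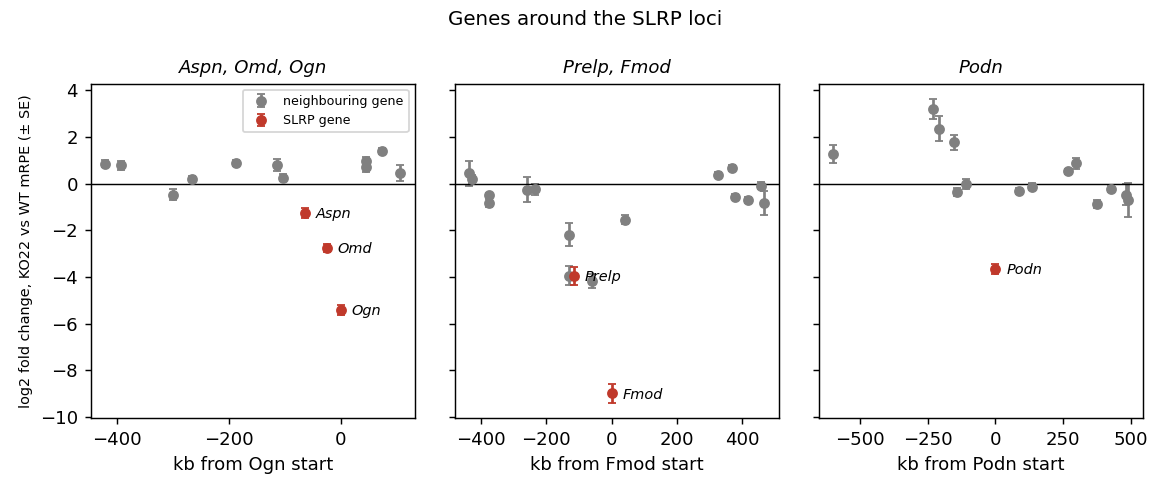
Log2 fold change of KO22 against WT mRPE, with its SE, for each gene within 500 kb of the *Aspn*, *Omd* and *Ogn* row, of *Prelp* and *Fmod* and of *Podn*, plotted by its distance in kb from the start of *Ogn*, *Fmod* or *Podn*. The 3 red points of the first panel go from -1.25 to -5.40 while grey neighbours lie near or above 0, and around *Fmod* some grey points are low as well.

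Of the other family members, *Podnl1* (podocan-like 1) moved against *Podn*. It gave 2.52 ± 0.562 CPM in WT (SD, n = 4) and 12.8 ± 3.09 CPM in KO22 (SD, n = 3), a rise of 2.31 ± 0.24 on the log2 scale (adjusted p = 5.24e-05, edgeR), and it was also higher than in KO26 (1.76). *Tsku* and *Chadl* did not pass the test in KO22, with log2 fold changes of -0.31 and 0.30.

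The genes that build and bind SLRPs were followed as lists, to be read against the 11.4% of all genes called higher and the 13.8% called lower in KO22. Of 7 enzymes that start the glycosaminoglycan linker, 2 rose in KO22 and none fell (median 0.24). *Xylt1*, which adds the first xylose, had no read in any WT library and 130 to 250 reads in KO22, at least 66.4-fold higher than a floor of 3 reads per library, and *Pxylp1*, a xylose phosphatase, rose by 1.65. Of 13 chondroitin and dermatan sulfate enzymes, 2 rose (*Chst3* 3.37, *Csgalnact1* 1.90) and 3 fell (*Ust* -1.67, *Dsel* -1.33, *Chst15* -1.29), with a median of -0.33. *Dsel* is an epimerase-like gene of dermatan sulfate synthesis and *Ust* a uronyl sulfotransferase. Of 6 keratan sulfate enzymes 1 fell (*B4galt4*, -1.82). Counts this small were not tested against the shares over all genes and are no result about these lists.

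Collagens that SLRPs bind fell in 8 of 14 in KO22 and rose in none, with a median log2 fold change of -1.41. The largest fall was that of *Col11a1*, the nucleator of fibrils (407 ± 151 to 28.7 ± 3.82 CPM, -3.80), followed by *Col12a1* (-2.55) and *Col6a2* (-2.01). In KO26 none of the 14 was called and the median was 0.43. Of 14 collagen processing and cross-linking genes, *Pcolce2* rose (5.03) and *Lox*, the lysyl oxidase (-1.77), *Adamts2* (-1.63) and *Tll1* (-1.43) fell, counts that are no result about the list either. Among 15 growth factors and receptors that SLRPs bind, 8 fell and 2 rose in KO22. *Kdr*, a VEGF receptor, had a log2 fold change of -6.22, *Bmp4* of -3.47 and *Egfr* of -2.44, while *Met* rose by 2.07. *Bmp2* had no read in WT and 25 to 64 reads in KO22, at least 13.0-fold higher than the floor of 3 reads per library. Of 9 proteases that cut SLRPs, *Adamts5* (-2.37), *Adamts1* (-1.36) and *Adamts4* (-1.31) fell and *Mmp9* (1.29) rose. All calls are by edgeR with adjusted p from 3.23e-07 to 0.00352. Fibroblast markers fell in 7 of 9 in KO22, among them *Pdgfra*, which is also in the receptor list, and *Col1a1* and *Col1a2*, which are also in the collagen list. Their part in the SLRP result was not tested.

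By Pearson correlation of log2 CPM over the 9 mRPE libraries, *Trp53inp1* (r = 0.997), *Kansl1* (0.995) and *Pcdhb19* (0.995) were most like *Ogn* among 9464 genes. Among the members r was 0.977 for *Prelp*, 0.973 for *Fmod*, 0.942 for *Omd*, 0.923 for *Podn*, 0.886 for *Bgn* and -0.46 for *Dcn*. The points share cell line, clone and batch, so the values describe these libraries only.

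In RPE/choroid, a bulk tissue in which stromal cells may add matrix transcripts of their own, all 9 members were measured. Which cells made these transcripts was not measured. In bulk tissue, fewer cells of a type and less RNA per cell cannot be told apart. In WT, *Dcn* was at 154 ± 46.0 CPM per kb (SD, n = 3) and *Bgn* at 131 ± 33.4, with overlapping ranges, above *Lum* (lumican, a keratan sulfate proteoglycan that orders collagen in cornea and sclera) at 58.9 ± 14.4. *Fmod*, *Ogn*, *Prelp* and *Omd* lay between 14.9 and 19.7 CPM per kb with overlapping ranges, and *Aspn* (5.35) and *Podn* (3.44) overlapped below them. *Bgn* and *Dcn* made up 77.8% to 80.4% of the 8 members other than *Lum*.

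None of the 9 members was called between labelled *Prom1*-KO and WT RPE/choroid, where 0.189% of 24926 genes were called, all of them lower. With unadjusted p under 0.05 there was 1 member, *Podn*. DESeq2's test called *Podn* higher (adjusted p = 0.0242) and no other member, where that test called 0.351% of 23919 genes with an adjusted p higher.
*Podn* gave 6.87, 9.25 and 16.6 CPM in WT and 28.1, 18.8 and 31.4 CPM in labelled *Prom1*-KO replicates 1 to 3. In TMM-scaled CPM every labelled *Prom1*-KO library was above every WT library. *Podn* was the only member whose groups did not overlap, as 14.6% of all genes tested did not in either direction. The separation depends on the TMM factors, with 0.488 in labelled *Prom1*-KO replicate 3, 1.07 in replicate 2 and 1.33 in WT replicate 3. Labelled *Prom1*-KO replicate 3 held 946 *Podn* reads among 61766179 counts, and replicate 2 held 1154 among 57016531. WT replicate 3 held 1138 among 51742746. Scaled to the total alone, both of these labelled *Prom1*-KO libraries lay below WT replicate 3. The *Podn* log2 fold change was 1.26 ± 0.34 (adjusted p = 0.333, edgeR). The *Podn* share of the 8 members was 0.736% to 1.19% in WT and 2.09% to 3.13% in labelled *Prom1*-KO. This share does not change with the TMM factors, and it was not tested.
*Ogn* gave 82.3, 105 and 86.3 CPM in WT and 84.2, 74.6 and 108 CPM in labelled *Prom1*-KO, with overlapping groups (log2 fold change -0.04 ± 0.18, adjusted p = 0.978, edgeR). *Fmod* gave 36.8, 49.8 and 97.9 CPM in WT and 41.2, 39.5 and 63.9 CPM in labelled *Prom1*-KO (-0.35 ± 0.37). The other 6 members overlapped too, with log2 fold changes from -0.34 (*Dcn*) to 0.10 (*Bgn*).
These intervals are wide, and the libraries of 1 group differed as much as the groups did. *Dcn* gave 622, 1037 and 1157 CPM in WT and 622, 545 and 1055 CPM in labelled *Prom1*-KO, and the summed fibroblast markers gave 232, 515 and 659 CPM and 221, 201 and 650 CPM in the same order. In TMM-scaled CPM, libraries low in *Dcn* were thus low in fibroblast markers in both groups. In labelled *Prom1*-KO this depends on the TMM factor of 0.488 in replicate 3. That library held 31832 *Dcn* reads among 61766179 counts, replicate 1 held 32026 among 48154444 and replicate 2 held 33400 among 57016531. The part of fibroblast markers in the SLRP values was not tested. *Dcn* made up 41.0% to 43.2% of the 8 members in WT and 35.7% to 36.4% in labelled *Prom1*-KO, shares that were not tested.

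**Figure D5:**
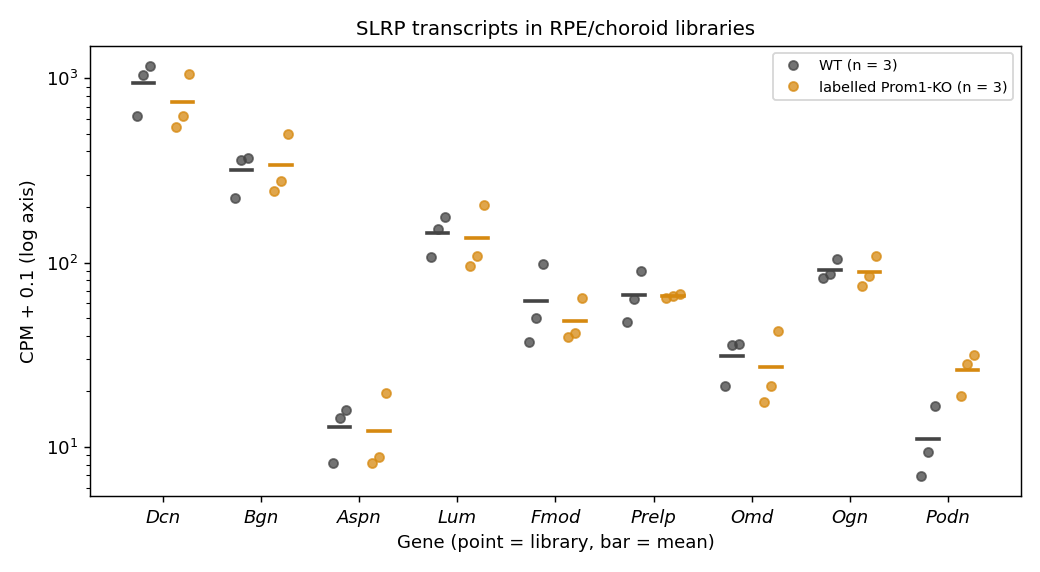
CPM + 0.1 on a log axis for the 9 SLRPs in RPE/choroid, with a point for each library and a bar for the group mean (WT n = 3, labelled *Prom1*-KO n = 3). Only the *Podn* points of the groups are apart, at 6.87 to 16.6 CPM in WT and 18.8 to 31.4 CPM in labelled *Prom1*-KO.

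The RPE markers, by contrast, were lower in labelled *Prom1*-KO RPE/choroid, with 3 of 10 called (*Rpe65*, *Lrat* and *Rgr*). They summed to 572 to 774 CPM against 2009 to 2904 CPM in WT. Mitochondrial transcripts took 64.9% to 69.1% of counts in WT and 71.0% to 84.2% in labelled *Prom1*-KO, where replicate 3 was the highest. None of the 7 SLRP lists of enzymes, collagens, receptors and proteases had a member called in tissue. *Tsku*, a secreted relative of the SLRPs, was lower in every labelled *Prom1*-KO library (5.67 to 2.96 CPM, log2 fold change -0.93, adjusted p = 0.201, edgeR) and was not called.

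In tissue the genes most like *Dcn* over 6 libraries were *Ptch1* (r = 0.989), *Ntrk3* (0.988) and *Scara3* (0.986) of 5011 genes. Among the members r with *Dcn* was highest for *Omd* (0.971), *Lum* (0.918) and *Aspn* (0.914) and lowest for *Podn* (0.0646). With 6 libraries of 2 groups that share depth and tissue mix, these values are descriptions. They were computed from TMM-scaled CPM, so they also depend on the factor of 0.488 in labelled *Prom1*-KO replicate 3.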

How the data were processed

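RNA sequencing was read as raw counts per gene, deposited by the authors for 9 mRPE and 6 RPE/choroid libraries in separate tables. Per the labels, reads were trimmed with Trim Galore 0.6.7 and aligned to mm39 with STAR, whose gene counts were used, and the kit was stranded while the strand setting of the counting was not stated. The deposited normalized tables were not used. Levels are CPM with TMM factors. Tests used R 4.3.3 and edgeR 4.0.16 (glmQLFit and glmQLFTest) with genes of at least 5 counts in at least 3 libraries, a batch term for mRPE (8995 and 9262, the library run numbers of the labels, are batches 1 and 2), Benjamini-Hochberg adjustment over all genes and limits of 0.05 on the adjusted p and 1.2 on the size of the log2 fold change. KO22 was fitted with WT alone, and KO26 and the clones over 9 libraries. The fits recovered 194, 187, 181 and 132 of 200 genes changed by a log2 fold change of 2 in simulated data, for KO22, KO26, KO22 with KO26 and tissue. Calls among unchanged genes were 5, 8, 6 and 7 in the same order. The simulated data held no batch difference, and changed genes were drawn only from those above a set mean count. Recovery was lowest in tissue, so a missing call says least there. Alternatives were DESeq2 1.42.0 factors and test, other filters, no batch term, no fold limit and each library left out. Named were the members, other SLRPs, up to 3 called genes per direction in each list, called neighbours within 500 kb and the 3 genes most like *Ogn* and *Dcn*. The members and lists were chosen with earlier results of these data known. Coordinates are GRCm39, the assembly of mm39, with GENCODE vM39 annotation. Protein sequences were not used here.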

Additional observations from a re-analysis of the deposited data

Results flagged for a closer look

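KO22 and KO26 carry different edits in the same gene. All 8 members measured in mRPE cells passed the adjusted p limit in edgeR's test of the difference between the clones, as did 34.4% of all genes tested. The log2 difference of KO22 minus KO26 was -9.09 for *Fmod*, -4.24 for *Ogn*, -3.78 for *Podn*, -3.27 for *Prelp*, -1.46 for *Omd*, -1.06 for *Aspn*, -0.68 for *Bgn* and 0.97 for *Dcn*, with adjusted p between 1.17e-06 and 0.0488. The adjusted p was over 0.05 for *Dcn* under 8 of 11 alternatives (0.30 without KO22 replicate 1, adjusted p = 0.189), and under 2 of 11 each for *Bgn* (up to 0.113, without KO26 replicate 2) and *Aspn* (up to 0.0944, without the batch term). For the other 5 members it stayed under the limit in all 11. All KO22 values of *Podn* lay below all its WT mRPE values. In RPE/choroid *Podn* was higher in every labelled *Prom1*-KO library than in every WT library in TMM-scaled CPM (log2 fold change 1.26). That separation depends on the TMM factors, among them 0.488 in labelled *Prom1*-KO replicate 3 and 1.33 in WT replicate 3. The difference between cells and tissue was not tested, since the tables were normalized separately. No library of WT mRPE stood apart from its group in any member by Dixon's criterion, which chance would meet in about 1 in 20 groups. With 4 libraries the criterion has little power, so it does not show that no library stands apart. For *Dcn*, WT replicate 1 gave 414 CPM where the other WT libraries gave 906 to 1047 CPM.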

How the results depend on the processing

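In KO22 the count of members called lower was 5 to 6 under the alternatives that kept the fold limit, with *Aspn* the member lost, and 7 with no limit on the fold change, where *Bgn* joined. The count called higher was 0 under every alternative run. In KO26 the count called lower was 1, and it became 0 without the batch term, 2 with no limit on the fold change and 0 to 2 with each library left out. The count of members higher in KO22 than in KO26 went from 0 to 1 (*Dcn*) with no limit on the fold change and was 0 to 1 with each library left out, 1 without KO22 replicate 3. In RPE/choroid DESeq2's test gave 1 higher member (*Podn*). Values that were not called changed sign. For KO26, *Fmod* went to -0.25 without the batch term and ranged from -0.18 to 0.60 with each library left out, *Bgn* from -0.030 to 0.33 and *Podn* from -0.57 to 0.70. In RPE/choroid these ranges were -0.30 to 0.29 for *Bgn*, -0.61 to 0.14 for *Aspn*, -0.52 to 0.12 for *Lum*, -0.62 to 0.16 for *Fmod*, -0.22 to 0.25 for *Prelp*, -0.69 to 0.034 for *Omd* and -0.21 to 0.078 for *Ogn*, while *Podn* stayed between 1.01 and 1.69. The cause was not tested. No paired analysis was possible because the replicate numbers name libraries and pair none.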

Other observations

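The aggrecan gene *Acan*, the large chondroitin sulfate proteoglycan of cartilage, which is not an SLRP, moved against the members in KO22. It was named after its values were seen, from a list of 5 cartilage markers of which 4 had rows. KO22 held 929 *Acan* reads over 3 libraries and WT 1 read over 4 libraries, a depth-scaled ratio of 1313 (exact 95% interval 235 to 51913, for counting error only), with a mean of 21.7 ± 6.70 CPM in KO22. The other 3 cartilage markers measured (*Col2a1*, *Comp* and *Cnmd*) were not called. Of 6 pericyte and smooth muscle markers in KO22, *Acta2* (log2 fold change -2.28), *Tagln* (-1.89) and *Rgs5* (-2.39) fell and *Cnn1* (1.94) rose, with adjusted p from 3.89e-06 to 0.00266 (edgeR's quasi-likelihood test). Their summed level was 637 to 1766 CPM in WT, 184 to 303 CPM in KO22 and 959 to 1907 CPM in KO26. Their part in the SLRP values was not tested.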
